A study of Mus musculus with 12 samples.

Results

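Mitochondrial ribosomal protein genes encode the protein part of the ribosome that works inside mitochondria. They were taken as every symbol made of Mrpl or Mrps, a number and at most 1 letter, provided that the gene reached 1 FPKM, a fragment count corrected for the length of the transcript and the size of the library, in at least 2 libraries. Of 24325 symbols listed, 77 had such a name and 76 passed the minimum, among 11069 genes tested in all. The gene that did not pass was Mrpl23, a large subunit protein, which had 0.192 and 0 FPKM in ko activated B cells and 0.666 and 0.425 FPKM in wt activated B cells and was listed at 0 in the other 8 libraries. Of the 76 genes, 49 encode proteins of the large subunit and 26 proteins of the small subunit. Mrps36 was assigned to neither, since its product is now known as a component of the 2-oxoglutarate dehydrogenase complex.

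The mitochondrial ribosome translates a small set of messenger RNAs that are transcribed from mitochondrial DNA and that encode core subunits of the respiratory chain and the ATP synthase. All of its proteins are encoded in the nucleus, made in the cytosol and imported. Some have a counterpart in the bacterial ribosome, and others are specific to mitochondria. Plasmablasts, the dividing cells that begin to secrete antibody, depend on mitochondria for energy and for building blocks while their endoplasmic reticulum expands.

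The series measured polyadenylated RNA of mouse splenic B cells that had been isolated with B220 beads, cultured for 4 days with lipopolysaccharide (LPS) at 25 µg/ml and then sorted. Of the 3 sorted fractions, CD138- GFP- cells are called activated B cells (ActB), CD138- GFP+ cells pre-plasmablasts (PrePB) and CD138+ GFP+ cells plasmablasts (PB). Cells came from Mzb1-/- Prdm1+/gfp mice (ko) and Mzb1+/+ Prdm1+/gfp mice (wt) on the C57BL/6 background, so every group, wt included, carried 1 Prdm1 allele with the gfp reporter. Mzb1 encodes a resident protein of the endoplasmic reticulum in B cells, and Prdm1 encodes Blimp-1, a transcription factor of plasma cells. The 6 groups had 2 libraries each, 12 in all. The labels do not say whether the 2 libraries of a group came from separate mice. P-values measure the spread between these libraries, which may be technical in the ko groups. In the wt groups it includes a difference of sex, described below.

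The sort labels were checked against marker genes. Sdc1, which encodes CD138, lay at 0.978 to 1.43 FPKM in the 4 ActB libraries, at 3.24 to 5.24 FPKM in the 4 PrePB libraries and at 66.5 to 98.4 FPKM in the 4 PB libraries. Some other stage markers differed by genotype in PB. Pax5 had 7.24 and 5.92 FPKM in ko PB, against 2.02 and 2.76 FPKM in wt PB. Cd22 had 5.39 and 2.56 FPKM in ko PB, against 1.26 and 0.971 FPKM in wt PB. Tnfrsf17 had 8.50 and 21.3 FPKM in ko PB, against 25.8 and 25.0 FPKM in wt PB. Prdm1 had 263 and 227 FPKM in ko PB, against 218 and 226 FPKM in wt PB. Sdc1, Jchain and Irf4 overlapped between the genotypes in PB. Cd3e, Cd8a, Mpo, Elane and Ncr1, which mark T cells, granulocytes and natural killer cells, were at or near 0 in all 12 libraries, while Cd3g reached 8.17 FPKM in ko PB replicate 2. Adgre1, a macrophage marker, was at 28.2 and 12.6 FPKM in ko ActB and 7.84 and 13.2 FPKM in wt ActB, and at most 1.58 FPKM in every PrePB and PB library. Csf1r, another macrophage marker, was at most 0.121 FPKM in all 12 libraries, so the 2 markers differed in ActB. Mki67, a gene of dividing cells, lay at 60.7 to 103 FPKM in ActB libraries and at 114 to 172 FPKM in PrePB and PB libraries. Top2a and Ccnb1, also genes of dividing cells, did not rise likewise. Top2a lay at 128 to 165 FPKM in ActB libraries and at 107 to 163 FPKM in PrePB and PB libraries. Ccnb1 lay at 10.8 to 14.4 FPKM and at 8.38 to 13.7 FPKM in the same order. The part of Adgre1-expressing cells, of cell division and of the stage markers that differed in PB in the results was not tested. Mzb1 itself had 1008 and 926 FPKM in ko PB, against 15434 and 17359 FPKM in wt PB. In ActB it had 273 and 289 FPKM in ko, against 845 and 1016 FPKM in wt. Part of its transcript thus remained in ko libraries, and which exons the deletion removes was not given in the sources used here. Xist, the RNA of the inactive X chromosome of female cells, was at 33.3 to 81.4 FPKM in replicate 1 of each of the 3 wt populations and at most 0.389 FPKM in the other 9 libraries. Ddx3y, a gene of the Y chromosome, was at most 0.0479 FPKM in those 3 wt libraries and at 15.7 to 22.0 FPKM in the other 9. The 2 wt libraries of each population thus differed in sex, and sex was not balanced between genotypes.

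As a set, the 76 genes were measured well above the minimum. Their mean over all libraries ran from 1.13 FPKM for Mrps36 to 186 FPKM for Mrpl20, a large subunit protein with a bacterial counterpart. The other genes with the highest means were Mrpl52, with 181 FPKM, and Mrpl54, with 172 FPKM, both specific to mitochondria. The lowest after Mrps36 were the small subunit genes Mrps33, with 5.76 FPKM, and Mrps25, with 6.76 FPKM. These are levels per transcript length. In bulk RNA, fewer cells that express a gene and less RNA of it per cell cannot be told apart.

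The 76 genes together held a smaller share of all FPKM at the later stages. In ActB they made up 0.922 and 0.862% of the total in ko libraries and 0.975 and 0.959% in wt libraries. In PrePB the share was 0.717 and 0.647% in ko and 0.793 and 0.728% in wt. In PB it was 0.685 and 0.673% in ko and 0.741 and 0.682% in wt. Every PrePB and PB library was below every ActB library, and each ko library was below both wt libraries in ActB and PrePB, while in PB the ko and wt libraries overlapped. The summed level itself lay between 3388 and 4326 FPKM in all libraries, whereas the total over all genes ran from 418966 to 581262 FPKM and was higher in every PrePB and PB library than in every ActB library.

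The first comparison asked which of these genes differed between wt plasmablasts and wt activated B cells. Of the 76, 41 passed the test, 11 of them higher and 30 lower in PB, by limma on log2(FPKM + 1) with Benjamini-Hochberg adjustment over all genes tested and a threshold of 0.05. Of all genes tested, 62% passed, with 31% higher and 31% lower. The median log2 change was -0.14 over the 76 genes and -0.01 over all genes tested, on the scale of log2(FPKM + 1), which understates the change of genes with low values. Because the library totals differed, the direction of the smaller changes depended on scaling. With every library rescaled to the same total, 4 were higher and 56 lower, against 18.7% and 49.6% of all genes, and the median was -0.50 over the 76 genes and -0.37 over all genes. Relative to all genes, the median of the 76 differed by -0.12 without rescaling and -0.13 with it.

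**Figure D1:**
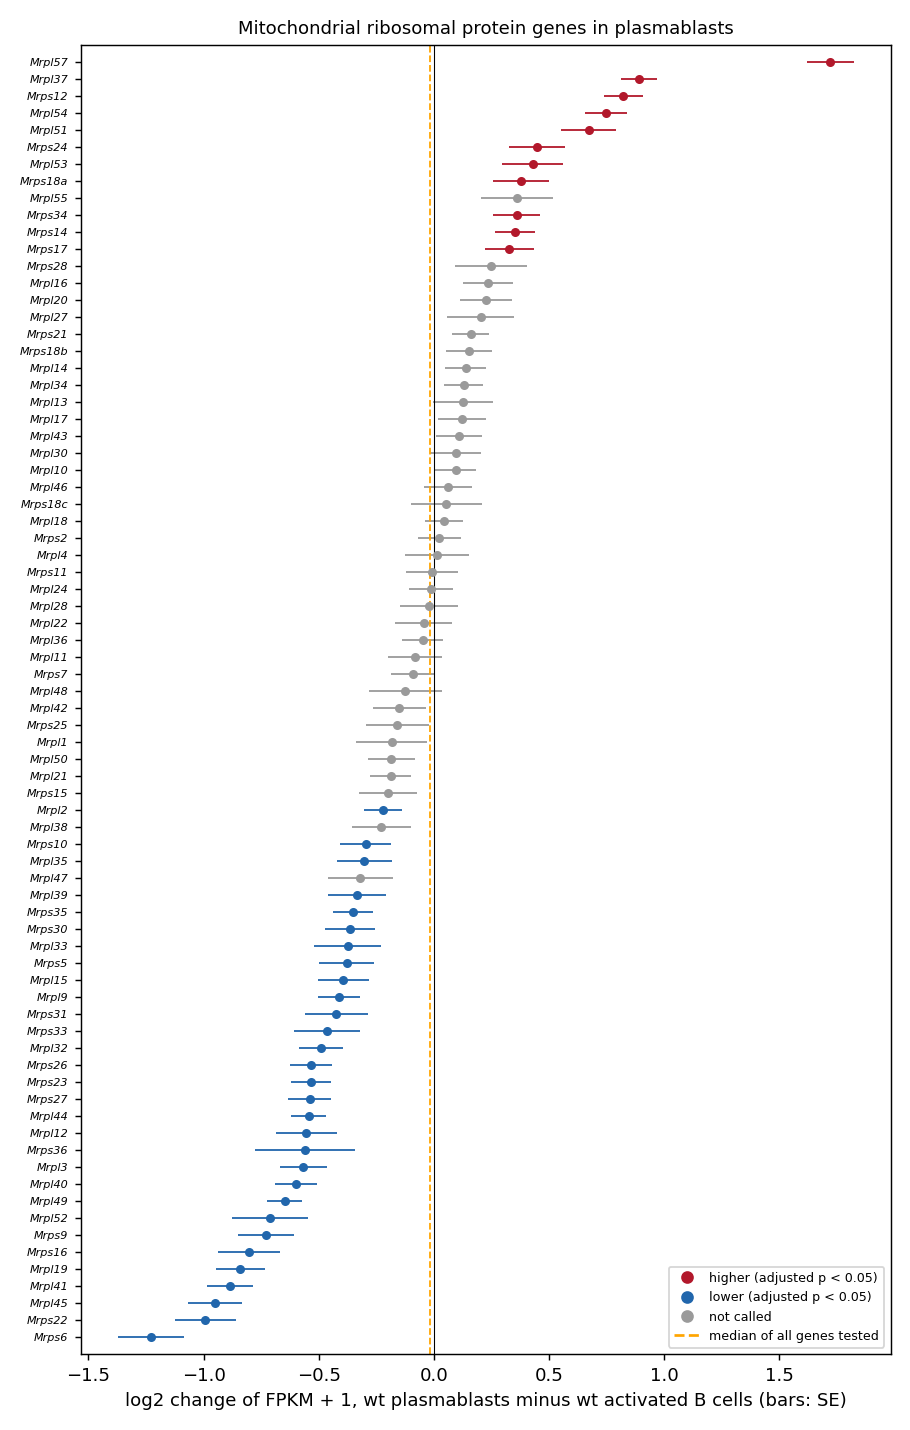
Log2 change of FPKM + 1 in wt plasmablasts minus wt activated B cells for the 76 mitochondrial ribosomal protein genes, ordered by size, with the standard error as bars (n = 2 libraries per group) and the median of all genes tested as a dashed line. The genes form a continuous range from -1.23 for Mrps6 to 1.72 for Mrpl57, with 30 called lower and 11 called higher.

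Genes of both subunits were found on each side. Of the 49 large subunit genes, 6 were higher and 17 lower, and of the 26 small subunit genes, 5 were higher and 12 lower. Among the 45 genes with a bacterial counterpart, 4 were higher and 14 lower, and among the 30 specific to mitochondria, 7 were higher and 15 lower. The remaining gene, Mrps36, was also called lower, but its level was near the minimum and its call was lost under 10 of the alternatives tried.

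Among large subunit genes, Mrpl57 had the largest rise of the 76. It had 61.8 and 63.3 FPKM in wt PB, against 16.8 and 19.8 FPKM in wt ActB, and was at 43.3 and 45.1 FPKM in wt PrePB. The 3 wt populations did not overlap. The log2 change in PB against ActB was 1.72 ± 0.10 (SE; limma, adjusted p = 1.29e-07), a 3.30-fold difference of FPKM + 1. Mrpl57 encodes a small protein specific to the mitochondrial ribosome, also known as MRP63.

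Mrpl37 and Mrpl54, both large subunit genes specific to mitochondria, also rose. Mrpl37 had 119 and 112 FPKM in wt PB, against 62.2 and 61.2 FPKM in wt ActB. Its log2 change was 0.89 ± 0.08 (SE; limma, adjusted p = 2.66e-06). Mrpl54 had 249 and 219 FPKM in wt PB, against 132 and 146 FPKM in wt ActB. Its log2 change was 0.75 ± 0.09 (SE; limma, adjusted p = 3.47e-05). Neither gene overlapped between the 2 populations.

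On the small subunit, Mrps12 had the largest rise. It encodes the counterpart of bacterial S12, a protein of the decoding centre. It had 130 and 117 FPKM in wt PB, against 71.9 and 67.1 FPKM in wt ActB. The groups did not overlap, and the log2 change was 0.82 ± 0.09 (SE; limma, adjusted p = 1.13e-05). Mrpl57, Mrpl37, Mrpl54 and Mrps12 were the 4 genes called higher under each of the 4 scalings tried (as deposited, equal totals, quantile normalization and median of ratios).

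The other 7 genes called higher had smaller changes, and none of them was called higher with equal totals. Mrpl51 (log2 change 0.67), a large subunit protein, had 39.0 and 41.6 FPKM in wt PB and 24.6 and 25.3 FPKM in wt ActB, and its change was 0.28 with equal totals, where it was not called. Mrps24, the counterpart of bacterial S3, changed by 0.45 and Mrpl53 by 0.43 on the log2 scale. Mrps18a changed by 0.38, Mrps34 by 0.36 and Mrps14 by 0.35. With equal totals the changes of the last 3 were -0.02, -0.03 and -0.04, and none was called, so their direction relative to total FPKM was not resolved. Leaving out wt PB replicate 1 ended the call of Mrps24 (0.36) and Mrps18a (0.21). Leaving out wt ActB replicate 2 ended that of Mrpl53 (0.21) and Mrps18a (0.39), leaving out wt ActB replicate 1 that of Mrps34 (0.25) and Mrps18a (0.36), and leaving out wt PB replicate 2 that of Mrpl53 (0.39) and Mrps34 (0.25).

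The 3 members of the S18 family occupy different places in the ribosome. Mrps18a lies in the large subunit, and Mrps18b and Mrps18c lie in the small subunit. Mrps18b had 32.1 and 33.0 FPKM in wt PB, against 28.8 and 29.5 FPKM in wt ActB. Mrps18c had 86.3 and 68.8 FPKM in wt PB, against 71.4 and 77.0 FPKM in wt ActB. The log2 changes of Mrps18b and Mrps18c were 0.15 and 0.05, and neither was called (limma, adjusted p = 0.206 and 0.774). With equal totals they were -0.24 and -0.34, the second of these called lower (limma, adjusted p = 0.0329).

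Among the genes that fell, Mrps6, the counterpart of bacterial S6 in the small subunit, had the largest change. It had 12.6 and 11.3 FPKM in wt PB, against 27.0 and 31.8 FPKM in wt ActB, with 23.1 and 16.8 FPKM in wt PrePB. The wt PB libraries lay below all other wt libraries. The log2 change in PB against ActB was -1.23 ± 0.14 (SE; limma, adjusted p = 2.62e-05).

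Mrps22, a small subunit protein specific to mitochondria, had 11.6 and 11.5 FPKM in wt PB, against 24.6 and 23.5 FPKM in wt ActB. Its log2 change was -0.99 ± 0.13 (SE; limma, adjusted p = 7.87e-05). Mrps16, the counterpart of bacterial S16, had 80.3 and 84.7 FPKM in wt PB, against 128 and 163 FPKM in wt ActB. Both genes fell without overlap, and mutations in either gene cause a mitochondrial disease in humans. Mrps9, the counterpart of bacterial S9, fell by 0.73 on the log2 scale.

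On the large subunit, Mrpl45, which anchors the ribosome to the inner mitochondrial membrane near the exit of the nascent chain, had 20.9 and 20.0 FPKM in wt PB, against 38.4 and 42.6 FPKM in wt ActB. Its log2 change was -0.95 ± 0.12 (SE; limma, adjusted p = 3.97e-05), and its level in wt PrePB, 22.1 and 18.2 FPKM, was already close to that in PB. Mrpl41 had 9.67 and 10.2 FPKM in wt PB, against 18.9 and 19.5 FPKM in wt ActB. Both genes fell without overlap. Mrpl19, the counterpart of bacterial L19, fell by 0.84 on the log2 scale, Mrpl52 by 0.71, Mrpl49 by 0.65 and Mrpl40 by 0.60.

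The stalk of the large subunit, where translation factors dock, is built by Mrpl10 and Mrpl12. Mrpl12, which in human mitochondria also binds the mitochondrial RNA polymerase, had 103 and 94.1 FPKM in wt PB, against 143 and 146 FPKM in wt ActB. It fell by 0.55 on the log2 scale (limma, adjusted p = 0.00375) with no overlap. Mrpl10 had 62.8 and 60.7 FPKM in wt PB, against 56.9 and 58.6 FPKM in wt ActB. Its log2 change was 0.10 without rescaling, not called (limma, adjusted p = 0.372), and -0.30 with equal totals, called lower (limma, adjusted p = 0.0232). Mrpl12 was 1 of 28 genes of the 76 called lower under each of the 4 scalings.

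**Figure D2:**
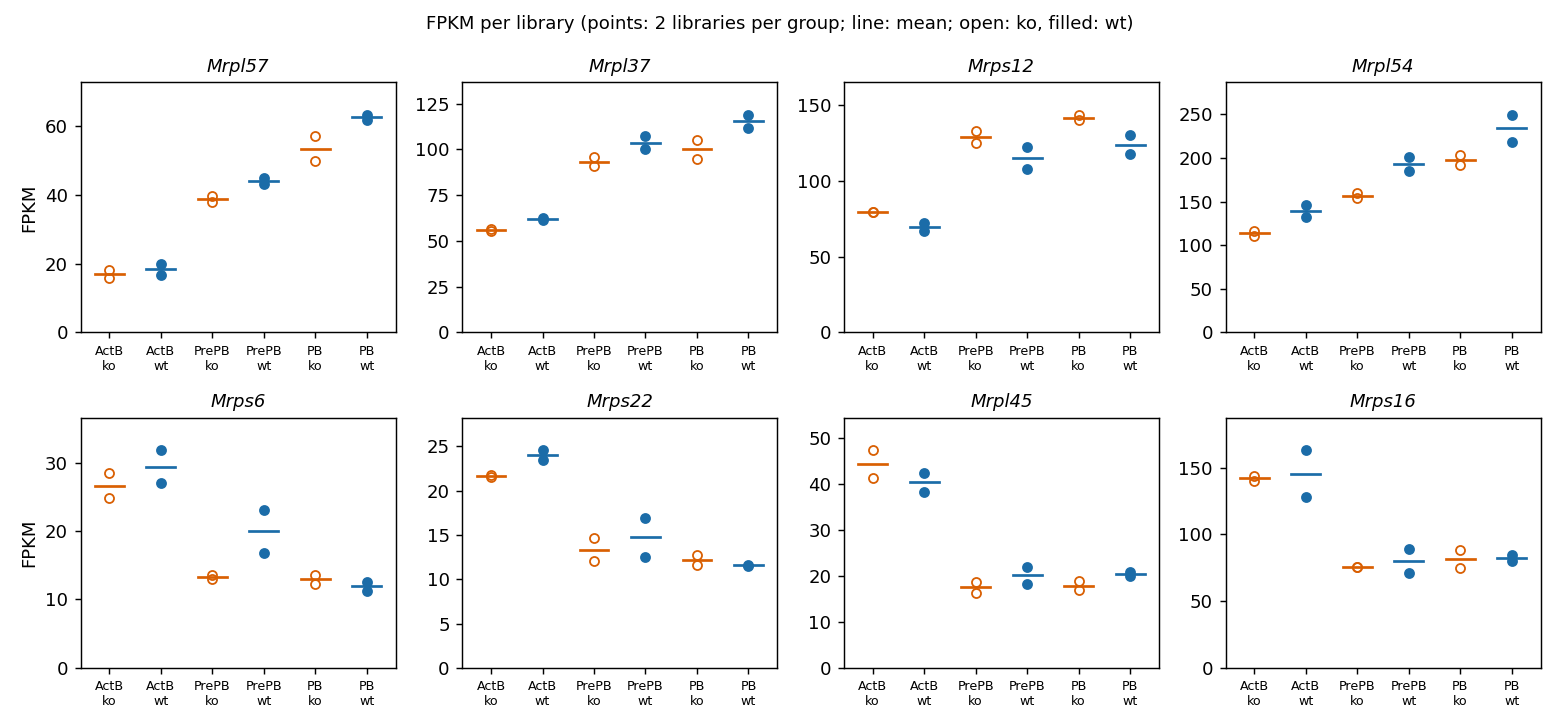
FPKM of 8 mitochondrial ribosomal protein genes in each of the 12 libraries (open circles ko, filled circles wt, lines the mean of 2 libraries), by population, with each vertical axis starting at 0. Mrpl57, Mrpl37, Mrps12 and Mrpl54 are higher in PrePB and PB than in ActB in both genotypes, and Mrps6, Mrps22, Mrpl45 and Mrps16 are lower.

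Promoter sequences are shown for the 3 genes with the largest rises and the 3 with the largest falls, to let the letters upstream of genes that moved in opposite directions be read side by side. They are the 200 bases before each RefSeq start on GRCm38.p6, 5′ to 3′ on the strand of the gene. The expression values were made on another build, mm9. Capitals mark matches to 6 motifs searched on both strands, which are NRF1 (GCGCA and GCGC with any 1 base between them), ETS (CCGGAAG), YY1 (AAGATGG), E-box (CACGTG), XBP1 (TGACGTG) and CCAAT, of which the E-box and XBP1 motifs share letters. NRF1, ETS and YY1 factors are known regulators of nuclear genes for mitochondrial proteins.
Mrpl57 (chr14:57826039-57826238, plus strand): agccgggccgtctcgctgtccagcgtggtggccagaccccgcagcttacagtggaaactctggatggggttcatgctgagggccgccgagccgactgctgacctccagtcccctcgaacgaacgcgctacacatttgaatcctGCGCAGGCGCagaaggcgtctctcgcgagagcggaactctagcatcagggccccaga
Mrpl37 (chr4:107066867-107067066, minus strand): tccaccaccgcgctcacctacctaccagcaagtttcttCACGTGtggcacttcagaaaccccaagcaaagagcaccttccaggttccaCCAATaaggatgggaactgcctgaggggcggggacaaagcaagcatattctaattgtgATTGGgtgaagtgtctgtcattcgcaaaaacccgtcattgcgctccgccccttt
Mrps12 (chr7:28741822-28742021, minus strand): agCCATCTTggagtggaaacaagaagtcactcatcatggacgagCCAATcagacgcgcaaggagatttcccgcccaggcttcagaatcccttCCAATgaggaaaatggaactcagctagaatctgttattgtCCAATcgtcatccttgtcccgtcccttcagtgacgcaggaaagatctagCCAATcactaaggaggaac
Mrps6 (chr16:92058136-92058335, plus strand): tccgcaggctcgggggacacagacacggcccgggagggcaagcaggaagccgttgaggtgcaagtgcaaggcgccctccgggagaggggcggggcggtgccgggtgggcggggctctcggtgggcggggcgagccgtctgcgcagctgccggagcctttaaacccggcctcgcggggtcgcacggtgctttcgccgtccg
Mrps22 (chr9:98601680-98601879, minus strand): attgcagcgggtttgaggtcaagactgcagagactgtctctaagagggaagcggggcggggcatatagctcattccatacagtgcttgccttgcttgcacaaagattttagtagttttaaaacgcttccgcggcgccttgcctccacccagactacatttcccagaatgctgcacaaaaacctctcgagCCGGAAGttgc
Mrpl45 (chr11:97315516-97315715, plus strand): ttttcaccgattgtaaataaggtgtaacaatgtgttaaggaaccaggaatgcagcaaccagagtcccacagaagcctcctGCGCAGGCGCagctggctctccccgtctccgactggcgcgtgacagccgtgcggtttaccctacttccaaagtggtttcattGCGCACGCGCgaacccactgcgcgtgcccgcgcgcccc
Positions count back from the start site to the leftmost base of the match. The Mrpl57 window holds 1 NRF1 match, at -57, and the Mrpl45 window holds 2, at -120 and -38. The Mrps12 window holds 4 CCAAT matches, at -156, -108, -68 and -19, and a YY1 match at -198. The Mrpl37 window holds an E-box at -162 and CCAAT matches at -112 and -54, the Mrps22 window an ETS match at -11, and the Mrps6 window none of the 6 motifs. An NRF1 match was thus present upstream of a gene that rose and of a gene that fell.

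For the whole set, windows of 250 bases before to 50 bases after the RefSeq start were available for 67 of the 76 genes, with 73 windows. An NRF1 motif was in 17.8% of these 73 windows, against 10.7% of 10740 windows of all genes tested and 4.60% of all 32851 windows. An ETS motif was in 34.2%, against 19.0% and 8.86%, and a YY1 motif in 17.8%, against 7.55% and 6.34%. The E-box was in 9.59%, against 10.4% and 7.15%, the XBP1 motif in 1.37%, against 3.03% and 2.01%, and CCAAT in 41.1%, against 38.3% and 37.4%. Split by the call in wt PB against wt ActB, the ETS motif was in 5 of 9 windows of genes called higher, 9 of 30 of genes called lower and 11 of 34 of genes not called. The NRF1 motif was in 1 of 9, 8 of 30 and 4 of 34 windows, and CCAAT in 5 of 9, 16 of 30 and 9 of 34. These shares are descriptions without a test, and a match is not a bound site.

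Some of these genes start next to a gene on the opposite strand. For 26 of the 67 genes with a window, another RefSeq gene started within 1000 bases on the other strand, pointing away. The 9 genes without a window were not assessed. Of the pairs found, 23 distinct ones had both genes tested. Mrpl57 starts 76 bases from Ska3, a gene of the mitotic spindle. Ska3 had 24.8 and 26.5 FPKM in wt PB, against 11.5 and 9.05 FPKM in wt ActB, and its log2 change was 1.25 beside 1.72 for Mrpl57. In 3 other pairs both genes were called, all lower, namely Mrpl41 with Pnpla7, Mrpl40 with Hira and Mrps27 with Ptcd2, which were chosen after their values were seen. Of the 11 called genes with a tested neighbour, 7 had a neighbour that was not called, where 62% of all genes tested were called. Conversely, the neighbours Tcp1, Ighmbp2, Mitd1, Ppp1r10 and Helq were called beside a gene of the 76 that was not. Mrps12, whose start is 147 bases from that of Sars2, the mitochondrial seryl-tRNA synthetase, rose by 0.82 while the log2 change of Sars2 was -0.16 (limma, adjusted p = 0.350). Mrpl37 and its neighbour Cyb5rl differed likewise, with log2 changes of 0.89 and 0.17. Across the 23 pairs, Pearson's r of the 2 changes was 0.472, and over the 22 pairs without Mrpl57 it was 0.151. The pairs are measured in the same libraries, and whether the authors' counting used strand is not given in the sources used here, which bears on reads where such genes overlap.

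**Figure D3:**
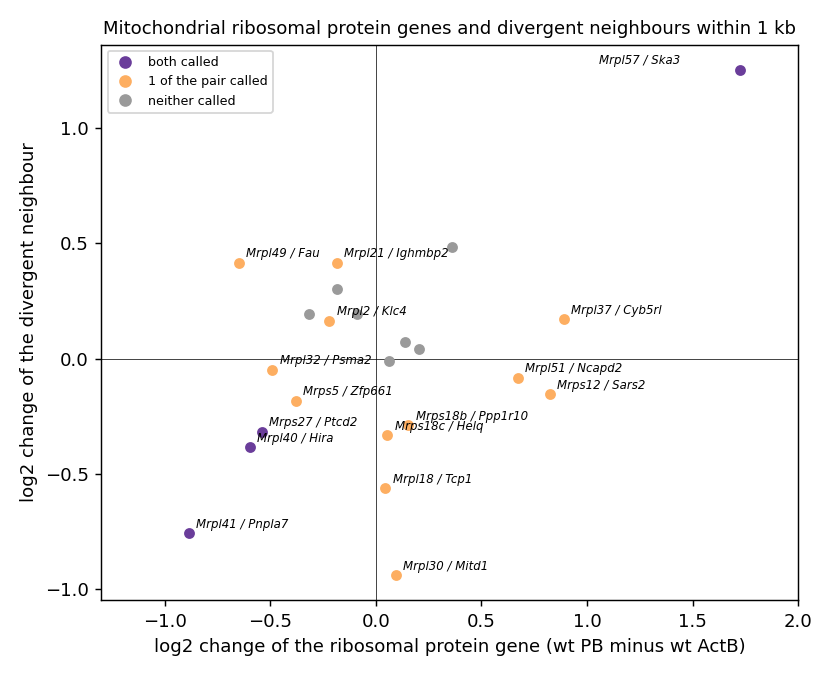
Log2 change in wt plasmablasts minus wt activated B cells of each mitochondrial ribosomal protein gene (horizontal) and of the gene that starts within 1 kb on the other strand (vertical), 1 point for each of 23 pairs, coloured by how many of the pair were called. Mrpl57 and Ska3 stand apart at the upper right, and the other pairs spread over both signs.

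In wt pre-plasmablasts against wt activated B cells, 32 of the 76 were called, 8 higher and 24 lower, beside 53.4% of all genes tested, 27.1% higher and 26.3% lower. The 5 largest rises were those of Mrpl57, with a log2 change of 1.23, Mrpl37 with 0.74, Mrps12 with 0.71, Mrpl51 with 0.62 and Mrpl54 with 0.47. The largest falls were those of Mrpl45, with -0.98, Mrps16 with -0.86, Mrpl41 with -0.75, Mrps22 with -0.68 and Mrpl19 with -0.63. With equal totals, 3 were higher and 44 lower, beside 17.2% and 41.3% of all genes, and Mrpl51 and Mrpl54 were no longer called. Both also lost their call without the 3 libraries that had Xist, with log2 changes of 0.57 and 0.34.

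Few of the 76 differed between the later populations. In wt PB against wt PrePB, 2 were called, 1 each way, beside 8.73% of all genes tested, 5.02% higher and 3.7% lower. Mrpl57 was higher, at 61.8 and 63.3 FPKM in wt PB against 43.3 and 45.1 FPKM in wt PrePB, with a log2 change of 0.49 ± 0.10 (SE; limma, adjusted p = 0.0159). Mrps6 was lower, with a log2 change of -0.68 ± 0.14 (SE; limma, adjusted p = 0.0171). Neither overlapped between the populations, but both calls ended without wt PrePB replicate 1, wt PB replicate 1 or wt PB replicate 2, and that of Mrpl57 also without wt PrePB replicate 2. Without these libraries the changes lay between 0.46 and 0.52 for Mrpl57 and between -0.46 and -0.75 for Mrps6. In the same comparison, 12 of the 76 had an unadjusted p under 0.05, beside 25.1% of all genes.

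The population comparisons in ko cells use libraries that the wt comparisons do not. In ko PB against ko ActB, 40 of the 76 were called, 9 higher and 31 lower, beside 62.2% of all genes tested, 31.2% higher and 30.9% lower. Mrpl57 had 49.8 and 57.1 FPKM in ko PB, against 15.9 and 18.1 FPKM in ko ActB, and a log2 change of 1.60. Mrps12 changed by 0.83, Mrpl37 by 0.82, Mrpl54 by 0.80 and Mrpl51 by 0.49. Mrpl45 had 17.0 and 18.8 FPKM in ko PB, against 47.4 and 41.3 FPKM in ko ActB, and the largest fall of the 76, with a log2 change of -1.26. Mrps6 changed by -0.99, Mrpl49 by -0.97, Mrpl19 by -0.85 and Mrpl41 by -0.84. With equal totals, 4 were higher and 52 lower, beside 21% and 43.5% of all genes.

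Set side by side, 8 of the 76 were called higher in both genotypes, 27 lower in both and 0 in opposite ways, beside 28% higher in both, 27.2% lower in both and 0.0181% opposite of all genes tested. Another 30 were called in neither genotype, beside 31.1% of all genes. In ko cells but not wt cells 5 were called, 6.58% of the 76, beside 6.92% of all genes. In wt cells but not ko cells 6 were called, 7.89% of the 76, beside 6.78% of all genes. Both shares were near those of all genes. The 5 called in ko cells alone were Mrpl21, Mrpl22, Mrpl42, Mrps11 and Mrps18b, named here after their values were seen. Pearson's r of the ko and wt changes was 0.957 across the 76 genes and 0.961 across all genes tested. Genes are not independent replicates, and this r is a description.

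**Figure D4:**
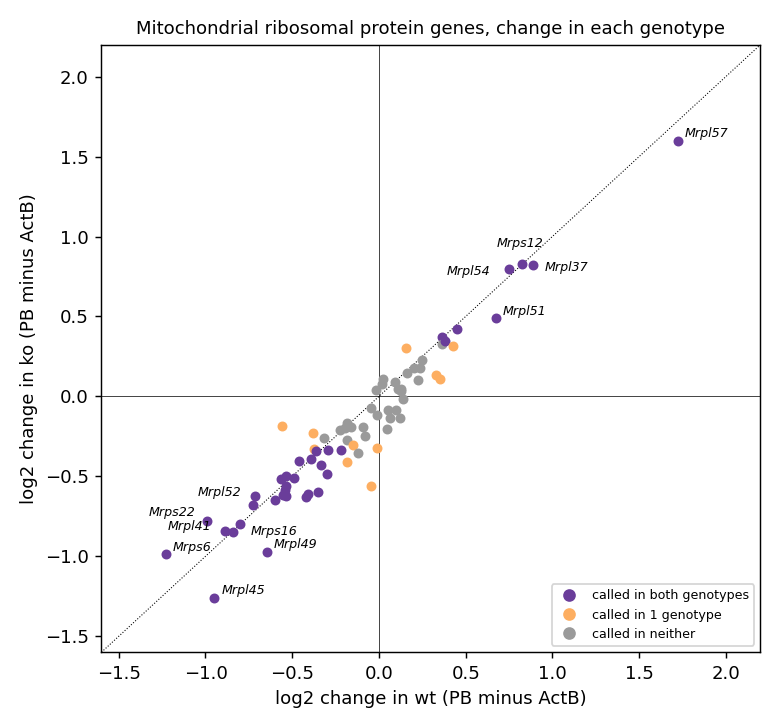
Log2 change of FPKM + 1 in plasmablasts minus activated B cells for the 76 mitochondrial ribosomal protein genes in ko cells (vertical) and wt cells (horizontal), with the diagonal of equal change dotted and colours for genes called in both, 1 or neither genotype. The points follow the diagonal, from Mrps6 and Mrpl45 at the lower left to Mrpl57 at the upper right, and no called gene has opposite calls.

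In ko PrePB against ko ActB, 39 were called, 5 higher and 34 lower, beside 54.2% of all genes tested, 27.1% higher and 27% lower. The 5 were Mrpl57 (log2 change 1.16), Mrpl37 (0.72), Mrps12 (0.69), Mrpl51 (0.57) and Mrpl54 (0.47), all of which were also called higher in wt PrePB. The largest falls were those of Mrpl45 (-1.29), Mrps6 (-0.95), Mrps16 (-0.90), Mrpl52 (-0.75) and Mrpl41 (-0.70). The count was 24 without ko PrePB replicate 1. With equal totals, 3 were higher and 48 lower, beside 18.5% and 37% of all genes.

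In ko PB against ko PrePB, 3 were called, beside 10.8% of all genes tested, 6.57% higher and 4.24% lower. Mrpl57 (log2 change 0.44) and Mrpl54 (0.33) were higher, and Mrpl49 (-0.37) was lower. Mrpl49 had 22.4 and 23.6 FPKM in ko PB, against 30.0 and 30.3 FPKM in ko PrePB, with no overlap. Leaving out any of the 4 libraries compared ended the call of Mrpl54 and Mrpl49, and leaving out any but ko PB replicate 1 ended that of Mrpl57. With equal totals, Mrpl57 (0.37, limma adjusted p = 0.0549) and Mrpl54 (0.25, adjusted p = 0.182) were not called. Mrpl49 was then still called lower, as was Mrps9 (-0.40, limma adjusted p = 0.0498), named after its value was seen.

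The second question was whether loss of Mzb1 moved these genes within a population. None of the 76 was called in any of the 3 populations by limma with adjustment over all genes, in the fit as written and under every alternative tried. Of all genes tested, 0.0542% were called in ActB, 0.117% in PrePB and 0.407% in PB. An unadjusted p under 0.05 was found for 4 of the 76 in ActB, 20 in PrePB and 20 in PB, beside 8.07%, 15% and 16% of all genes. In ActB the share of the 76 was below that of all genes. Among the 76, all genes with such a p were lower in ko cells except Mrps12 in PB. The 4 in ActB were Mrps18b, Mrpl47, Mrpl54 and Mrpl50, of which Mrpl47 was named after its value was seen.

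Though no single gene passed, most were lower in ko cells by a small amount. The log2 difference was above 0 for 16 of the 76 in ActB, 5 in PrePB and 9 in PB. Its median over the 76 was -0.10 in ActB, -0.18 in PrePB and -0.17 in PB, beside 0.01, 0.01 and 0.03 over all genes tested. With equal totals, 9, 6 and 18 of the 76 were above 0, with medians of -0.14, -0.15 and -0.10, beside -0.03, 0.04 and 0.09 over all genes. Both ko libraries lay below both wt libraries for 31 of the 76 in ActB, 40 in PrePB and 44 in PB, beside 17.7%, 21.4% and 21.2% of all genes. Both lay above for 4, 1 and 3 genes, beside 18.3%, 25.7% and 28% of all genes. Mrps12 was above in each population, with 140 and 143 FPKM in ko PB, against 130 and 117 FPKM in wt PB, and a log2 difference of 0.19 (limma, unadjusted p = 0.0478). The others were Mrpl34, Mrpl46 and Mrps11 in ActB and Mrpl34 and Mrpl4 in PB, named after their values were seen.

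**Figure D5:**
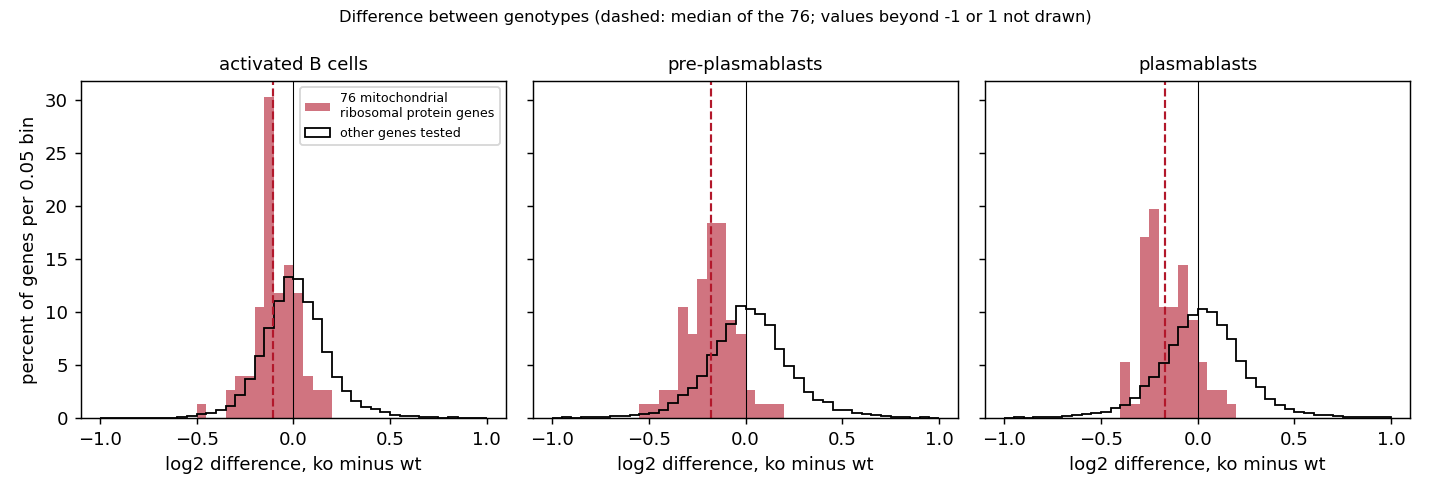
Distribution of the log2 difference of FPKM + 1, ko minus wt, in each population for the 76 mitochondrial ribosomal protein genes (filled) and the other genes tested (outline), as percent of genes per bin of 0.05, with the median of the 76 dashed. Most of the filled distribution lies left of 0 in all 3 populations, with medians of -0.10, -0.18 and -0.17, while the outline is centred near 0.

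The genes with the lowest p show the size of these differences. In PB, Mrps14, the counterpart of bacterial S14, had 32.3 and 34.1 FPKM in ko, against 45.3 and 42.0 FPKM in wt, a log2 difference of -0.38 ± 0.09 (SE; limma, adjusted p = 0.0897). Mrpl18, which in human mitochondria takes part in the import of an RNA, had 74.1 and 80.0 FPKM in ko PB, against 95.1 and 102 FPKM in wt PB (log2 difference -0.35, adjusted p by limma = 0.0936). Mrpl49 had a log2 difference of -0.28 in PB. None of the 3 overlapped between genotypes, and none passed the threshold.

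In PrePB, Mrpl42 had 53.5 and 60.9 FPKM in ko, against 83.5 and 76.9 FPKM in wt, a log2 difference of -0.48 (limma, adjusted p = 0.137). Mrps6 had a log2 difference of -0.54 and Mrps10 of -0.43, also not called. In ActB the lowest p were those of Mrps18b, with a log2 difference of -0.34 and an adjusted p of 0.433 by limma, Mrpl54 with -0.29 and Mrpl50 with -0.27. Each of these had both ko libraries below both wt libraries.

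Other differences between the libraries are described here beside that between genotypes, and their part in it was not tested. Within wt PrePB, replicate 1, a library with Xist, was above replicate 2 for 69 of the 76 genes, with a median log2 difference of 0.21, beside 47.2% and -0.01 for all genes tested. Ko minus wt in the same population had a median of -0.18. Replicate 1 was above replicate 2 for 20, 23 and 41 of the 76 in ko PB, ko PrePB and ko ActB, and for 56 and 24 in wt PB and wt ActB, where the shares of all genes ran from 43.9 to 45.8%. Without the 3 libraries with Xist, the median of ko minus wt over the 76 was -0.11 in ActB, -0.08 in PrePB and -0.11 in PB.

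The libraries also fell into 2 patterns by how often low values, under 0.5 FPKM, stood in the same ratio between 2 libraries, within a log2 tolerance of 0.002. The most common ratio held for 4.81 to 20.1% of low genes within a pattern and for 1.38 to 2.75% across patterns. Replicate 2 of ko ActB, replicate 2 of ko PrePB and both ko PB libraries had 1 pattern, and the other 8 libraries had the other. The mean of log2(FPKM + 1) over the 76 was 5.32 in the ko ActB library with the first pattern and 5.34 in the other ko ActB library, against 5.38 and 5.45 in wt ActB. It was 5.17 and 5.08 in the same order for ko PrePB, against 5.40 and 5.21 in wt PrePB. In PB the pattern and the genotype cannot be told apart. With a term for the pattern, the median of ko minus wt over the 76 was -0.12 in ActB, -0.20 in PrePB and -0.19 in PB. Only ko ActB and ko PrePB held both patterns, so the term was estimated from these groups alone. The PB value thus cannot separate genotype from pattern within PB.

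Transcript length differed between the 76 genes and the rest, with medians of 1051.5 and 2095 bases in GENCODE vM21. Among genes under 1000 bases, the median of ko minus wt was -0.06 in ActB, -0.22 in PrePB and -0.16 in PB for 35 of the 76, beside -0.004, -0.04 and -0.03 for 1941 other genes. Among genes of 1000 to 2000 bases it was -0.11, -0.17 and -0.19 for 24 of the 76, beside 0.01, -0.005 and -0.003 for 2871 others. Among genes of 2000 to 4000 bases it was -0.11, -0.18 and -0.22 for 14 of the 76, beside 0.01, 0.04 and 0.04 for 3686 others. The 3 genes of the set with 4000 bases or more had medians of -0.12, -0.12 and -0.14, beside 0.002, 0.05 and 0.09 for 1667 others. The part of transcript length in the difference was not tested.

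Some other gene lists of mitochondria had differences of like size, and others had smaller ones. The lists of translation factors, of mitochondrial DNA and RNA processing and of nuclear regulators are not given for this comparison. The nuclear-encoded respiratory chain subunits had medians of ko minus wt of -0.11 in ActB, -0.17 in PrePB and -0.15 in PB over 31 genes, and the import and protease list had -0.12, -0.21 and -0.20 over 30 genes. Cytosolic ribosomal protein genes had -0.02, -0.30 and -0.50 over 19 genes, whose reads are shared with many pseudogenes and are uncertain. The mitochondrial tRNA synthetases had -0.07, -0.03 and -0.01 over 17 genes, and the ribosome assembly list 0.01, 0.02 and 0.01 over 29 genes. No difference between these lists was tested.

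Whether the step between populations differed between genotypes was tested gene by gene as an interaction. None of the 76 was called in any of the 3 interactions, beside 0.0452% of all genes for PB and ActB, 0.0361% for PrePB and ActB and 0% for PB and PrePB. At an unadjusted p under 0.05 there were 2, 1 and 1 of the 76, beside 4.15%, 3.57% and 2.46% of all genes. They were Mrpl22 and Mrpl49 for PB and ActB, Mrpl21 for PrePB and ActB and Mrps6 for PB and PrePB. The Mrps6 interaction was 0.64 ± 0.20 on the log2 scale (SE; limma, unadjusted p = 0.0095), since its level in ko PrePB, 13.6 and 12.9 FPKM, was already near that in ko PB, 13.6 and 12.2 FPKM, while wt PrePB had 23.1 and 16.8 FPKM.

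Genes that work with the mitochondrial ribosome were described for wt PB against wt ActB from lists that exclude the 76. The counts of every list are to be read beside all genes tested, of which 31% were higher and 31% lower. With equal totals these shares were 18.7% and 49.6%. The lists are given as deposited only, so the direction of their smaller changes relative to total FPKM was not resolved. Of 6 ribosomal proteins with other names, 0 were higher and 2 lower, Dap3 (log2 change -0.57) and Ptcd3 (-0.50), both of the small subunit. Of 23 mitochondrial translation factors, 2 were higher and 11 lower, with a median of -0.32. Among them Lrpprc, which stabilizes mitochondrial messenger RNA, had 16.7 FPKM in wt PB and 33.0 FPKM in wt ActB on average, a log2 change of -0.94. Gfm1, an elongation factor, changed by -0.61, Pdf, the peptide deformylase, by -0.79, and Gatc, a subunit of the amidotransferase that makes glutaminyl-tRNA, by -0.97.

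Of 29 genes of ribosome assembly and ribosomal RNA modification, 3 were higher and 11 lower. Mettl15, a methyltransferase of the small subunit RNA, averaged 22.6 FPKM in wt PB and 3.25 FPKM in wt ActB, a log2 change of 2.47 (limma, adjusted p = 1.41e-08). Spg7, a subunit of the protease that matures Mrpl32, changed by 0.43, the pseudouridine synthase gene Rpusd4 by -0.62 and the ribosomal RNA methyltransferase gene Mrm1 by -0.65. Of 17 mitochondrial tRNA synthetases, 2 were higher and 7 lower, among them Wars2 (-1.15), Hars2 (-0.57) and Iars2 (-0.44). Of 18 genes of mitochondrial DNA transcription, replication and RNA processing, 2 were higher, Tfb2m (0.62) and Grsf1 (0.35), and 5 lower, among them Pnpt1 (-0.60) and Elac2 (-0.51). Tfb2m is a mitochondrial transcription factor, Grsf1 an RNA granule protein, Pnpt1 a nuclease and Elac2 a tRNA-processing enzyme.

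Of 30 import and protease genes, 6 were higher and 11 lower. The import channel gene Timm17b changed by 1.38 and Timm21 by 1.29, while the matrix chaperones Hspd1 and Hspa9 changed by -1.18 and -0.86. Of 12 nuclear regulators of mitochondrial genes, 1 was higher, Perm1 (0.72), at 1.36 FPKM in wt PB and 0.441 FPKM in wt ActB on average, and 4 lower, among them Gabpa (-0.32) and Gabpb2 (-0.36), which encode subunits of the ETS factor GABP, and Max (-0.72). Of 31 nuclear-encoded respiratory chain subunits, 10 were higher and 5 lower, with Ndufa1 at 2.13, Sdhc at 0.80, Ndufa2 at 0.74 and Atp5o at 0.55. Of 19 cytosolic ribosomal protein genes, 2 were higher, Rpl10 (1.44) and Rps7 (0.51), and 0 lower. The messenger RNAs made from mitochondrial DNA, which the mitochondrial ribosome translates, were not analysed here.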

How the data were processed

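Polyadenylated RNA was sequenced from 12 libraries, 2 for each of 6 groups of sorted mouse B cells. Values are FPKM per gene symbol as the authors deposited them, 1 file for each library. Per the submitters' processing notes, Cuffnorm 2.2.1, Cuffdiff and Cufflinks 2.2.1 were used on the mm9 build, with TopHat2 2.0.14 and bcl2fastq 2.17.1.14 and 0.3.1; their roles, the annotation, the library scaling and any filter are not given in the sources used here. No counts were used, so depth is unknown and no counting interval is given.

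Of 24325 symbols, 11069 reached 1 FPKM in 2 or more libraries and were tested in 1 limma-trend fit (limma 3.58.1, R 4.3.3) of log2(FPKM + 1) with a coefficient for each of the 6 groups, 6 residual degrees of freedom, two-sided, with Benjamini-Hochberg adjustment within each comparison and a threshold of 0.05. Fold changes are on the FPKM + 1 scale. No replicate block was used, and the scripts were tested on simulated data. Alternatives were 3 other scalings, all genes unfiltered, a minimum of 5 FPKM, 0.1 as pseudocount, the compared groups alone, a replicate block, a term for the pattern of low values, and leaving out libraries. The members, companion lists, motifs and named genes were chosen with earlier results of these data known. In PB against ActB of wt, up to 10 called genes each way were named, in the other population comparisons up to 5, in comparisons of genotype and interactions the 3 with the lowest p, beside the S18 family, the stalk, Mrps12, Mrpl45 and the 3 highest and 3 lowest means, and up to 4 called genes of each companion list. Of these companion genes, 1 is not reported here. Promoters come from RefSeq on GRCm38.p6 and transcript lengths from GENCODE vM21, matched by symbol for 67 and 76 of the 76 genes.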

Additional observations from a re-analysis of the deposited data

How the results depend on the processing

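No gene of the 76 was called between genotypes or in an interaction under any alternative (leave-one-out range 0 to 0). Without 1 library, the count lay between 29 and 42 for wt PB against wt ActB (41 with all), 32 and 41 for ko PB against ko ActB (40), 23 and 32 for wt PrePB against wt ActB (32), and 24 and 39 for ko PrePB against ko ActB (39, with 24 without ko PrePB replicate 1). For wt PB against wt PrePB (2) it lay between 0 and 2 and was 1 with equal totals, 1 with the compared groups alone and 0 without the 3 libraries with Xist. For ko PB against ko PrePB (3) it lay between 0 and 3 and was 0 with the compared groups alone and 1 with a term for the pattern of low values.

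With equal totals, 23 of the 76 changes in wt PB against wt ActB turned from above to below 0, and 10 of these were then called lower. Among the named genes with a call in either setting, they were Mrps18a (-0.0182), Mrps34 (-0.0343) and Mrps14 (-0.0394), no longer called higher, and Mrpl18 (-0.35), Mrps18c (-0.34) and Mrpl10 (-0.30), called lower. The all-gene median moved to -0.37 in this alternative, by its construction. Over the named genes, 1865 values under an alternative stayed on the same side of the threshold, with the same direction where called, 81 lost the call, 5 gained it and 6 reversed with a call in either setting. Rescaling aside, the cause of a lost call was not tested.

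The labels number replicates 1 and 2 in each group but do not say that a number marks a shared animal or day. The correlation of replicate deviations between populations of 1 genotype was 0.29, 0.11 and 0.10 in ko and 0.05, 0.24 and 0.32 in wt. Between genotypes within a population it was -0.11, -0.08 and -0.05. In wt, replicate 1 had Xist and replicate 2 had Ddx3y in each population, so the number followed sex there. Whether a number marks a shared animal within a genotype was not tested, and the main fit did not take the numbers as pairs. With a replicate block, the count of called genes was 42 for wt PB against wt ActB, 33 for wt PrePB against wt ActB, 3 for wt PB against wt PrePB, 42 for ko PB against ko ActB, 43 for ko PrePB against ko ActB, 5 for ko PB against ko PrePB and 0 between genotypes.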
